A study of Homo sapiens with 9 samples.

Results

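The account covers 10 genes whose symbols were chosen by name as regulators and markers of the epithelial and mesenchymal states: SNAI1, SNAI2, ZEB1, OVOL1, GRHL2, ESRP1, ESRP2, CDH1, VIM and FN1. All 10 are among the 60591 symbols of the deposited count table. Messenger RNA was sequenced from undifferentiated Caco-2 cells (uCaco-2), proliferating cells of a human colon adenocarcinoma line, and the question was how these genes differ when the hypoxia pathway is activated chemically. The cells were kept for 24 h with 300 μM CoCl2 (cobalt (II) chloride), with 5 μM of an oxyquinoline derivative (OD) or with neither (control), with 3 biological replicates per condition and 0.5% DMSO in all of them. The 2 agents were given at different doses, and as Caco-2 is a single cancer line, the libraries are replicates of cultures and not of donors.

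Epithelial cells are held together by E-cadherin, the product of CDH1, and can lose this adhesion and gain fibroblast-like features in the epithelial-mesenchymal transition (EMT). The transition is driven by transcription factors of the Snail and ZEB families, which bind E-boxes and repress epithelial genes, and it is opposed by factors such as GRHL2 and OVOL1 and by the splicing regulators ESRP1 and ESRP2. Hypoxia-inducible factors (HIF) are known to act on this network in several carcinomas, and in the gut the balance bears on the barrier and on wound closure.

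Total counts per library ranged from 15998136 to 24209427. The CoCl2 libraries stood apart in composition, with TMM factors (edgeR's correction for such shifts) of 0.770 to 0.795 against 1.11 to 1.15 in the other 6 libraries. When counts were scaled by library size alone, the median of all tested genes with CoCl2 went from -0.049 to -0.55 on the log2 scale, and the values that this moves past a threshold or through 0 are given beside each of the 10 genes. CPM values put the counts of all libraries on 1 scale by their totals and these factors. Libraries of 1 condition were not repeats of each other (chi-square over degrees of freedom 1.82 to 3.32, above sampling noise), so all 9 were kept.

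Of the 10 genes, 8 passed edgeR's expression filter and were tested among 15944 genes by its quasi-likelihood test over the 9 libraries, with Benjamini-Hochberg adjustment over all of them. ZEB1 and SNAI2 had too few counts to pass. A gene was called at an adjusted p under 0.05 with a log2 fold change above 1 in size. With CoCl2, SNAI1 and OVOL1 were called higher (2 of 8, beside 19.9% of all genes tested). None was called lower with CoCl2, where 23.4% of all genes were, although 5 of the 8 had an unadjusted p under 0.05 on that side, and DESeq2 also called none. Scaling by library size alone turned these shares of all genes into 11.5% higher and 36.6% lower. By the adjusted p alone all 8 tested genes differed from control with CoCl2, as did 83.2% of all genes. With OD the called genes were again SNAI1 and OVOL1 (2 of 8, beside 9.09% of all genes). None was called lower with OD by edgeR or DESeq2, beside 4.16% of all genes, and 1 of the 8 had an unadjusted p under 0.05 on that side. By the adjusted p alone 6 of 8 differed from control with OD, beside 65.6%. These shares are small counts over genes picked by name, and nothing about the group is read from them.

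**Figure D1:**
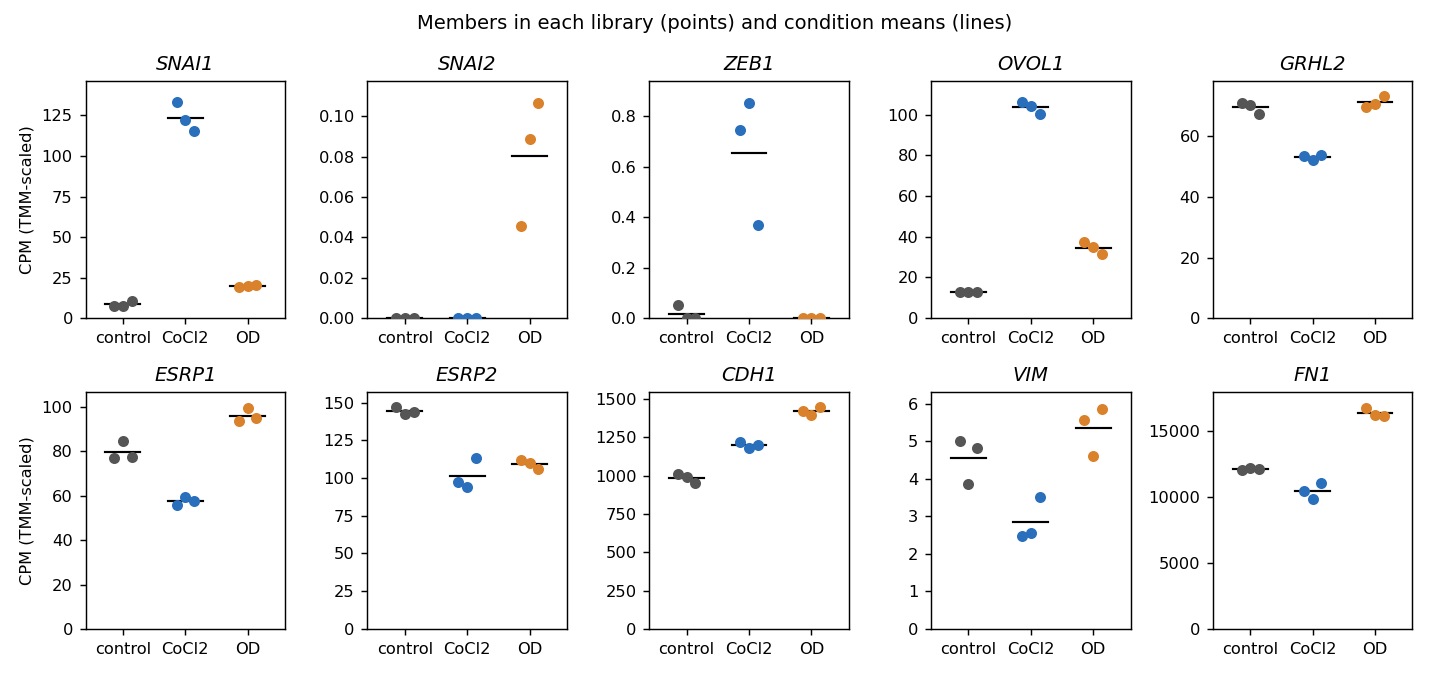
CPM (counts relative to the TMM-scaled library total, linear axes from 0) of the 10 genes in each of the 9 libraries, as points, with the mean of each condition as a line. SNAI1 and OVOL1 are highest in all 3 CoCl2 libraries, GRHL2 and ESRP1 are lowest there, CDH1 and FN1 are highest with OD, and SNAI2 and ZEB1 stay under 1 CPM.

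SNAI1 encodes Snail, a zinc-finger repressor of CDH1, and lies on the plus strand of chromosome 20 (49982980 to 49988886, GRCh38, by the GENCODE annotation used for all positions here). The control libraries held 143, 155 and 185 counts, or 7.69, 7.60 and 10.4 CPM. With CoCl2 there were 2138, 1583 and 2204 counts, or 133, 122.5 and 115.6 CPM. With OD the counts were 421, 452 and 381, or 19.1, 20.1 and 20.3 CPM. The libraries of the 3 conditions did not overlap, and the OD libraries lay between the other two groups. SNAI1 averaged 8.56 ± 1.58 CPM in the control group, 123.7 ± 8.77 in the CoCl2 group and 19.8 ± 0.620 in the OD group (SD, n = 3). Against control, CoCl2 gave a log2 fold change of 3.86 (adjusted p = 3.89e-47 in the edgeR fit, standard error 0.075), a 14.5-fold higher level. In bulk RNA a higher level per cell and a larger share of expressing cells cannot be told apart, for this gene and for those that follow. With OD it was 1.22 (adjusted p = 3.85e-18 in that fit, standard error 0.091), or 2.33-fold. Of the 8 tested genes SNAI1 had the largest change with CoCl2. Over 19 alternative settings its log2 fold change stayed between 3.35 and 4.01 with CoCl2 and between 1.13 and 1.37 with OD.

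SNAI2 encodes Slug, the close relative of Snail, and was at or near 0 throughout. It had 0 counts in every control and CoCl2 library and 1, 2 and 2 counts in the OD libraries. A count of 0 over 3 libraries allows up to 0.0528 CPM in control cells and 0.0624 CPM with CoCl2, taking 3 counts as the limit. Set against that limit in control cells, the 5 counts of SNAI2 with OD gave a ratio of 1.495. This ratio takes no account of the error of the 5 counts and is not a lower bound. Without a count filter edgeR gave an adjusted p of 0.113. A difference was not detectable at this depth.

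ZEB1 encodes a zinc-finger and homeodomain repressor that acts on CDH1 and the miR-200 genes, and spans 31318495 to 31529814 on the plus strand of chromosome 10. Its counts were 12, 11 and 7 with CoCl2, or 0.746, 0.851 and 0.367 CPM. The control libraries had 1, 0 and 0 counts, and none was found in any OD library, which allows up to 0.0474 CPM. The CoCl2 libraries were thus the only ones with more than 1 read. Summed over the libraries, 30 counts with CoCl2 against 1 in control cells gave a ratio of 35.5, with an exact 95% interval of 5.89 to 1447. Against OD, the 30 counts with CoCl2 set against 3 counts over the OD group gave a ratio of 13.2. This ratio takes no account of the error of the 30 counts. The interval covers the counting error of the summed reads only. It leaves out the spread between cultures and PCR copies, which could not be removed. Without the count filter ZEB1 was called with CoCl2 by edgeR (adjusted p = 3.7e-07) and by DESeq2 (adjusted p = 0.000705, both over all genes with a count), so that 3 of the 10 genes in place of 2 were called. It was also called in 7 of the 9 fits that left out 1 library, in which the filter asks for fewer libraries. ZEB1 passed that filter through the CoCl2 libraries alone, where it was high. These fits reuse the same reads, so their calls are no further support. ZEB1-AS1, the antisense transcript that shares 4.58% of the exonic bases of ZEB1, had 4 to 5 counts with CoCl2, 5 to 6 in control cells and 4 to 11 with OD, and so was not high where ZEB1 was.

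**Figure D2:**
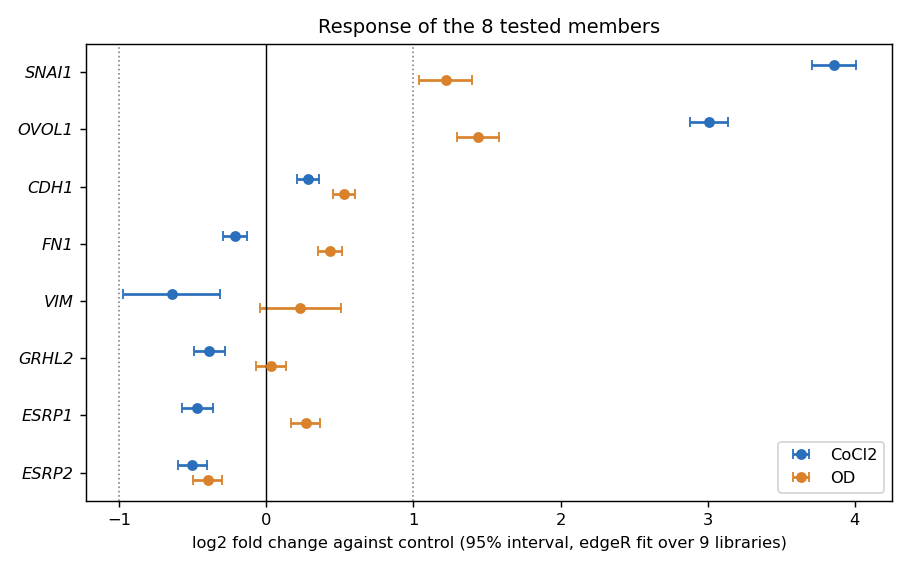
Log2 fold change against control with CoCl2 and with OD for the 8 tested genes, with 95% intervals from the edgeR fit over 9 libraries and dotted lines at the threshold of 1 in size. SNAI1 and OVOL1 lie beyond the threshold with both agents, and FN1 and ESRP1 have intervals on opposite sides of 0 for the 2 agents.

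OVOL1 encodes a zinc-finger repressor that counteracts the mesenchymal program in epithelia. The gene is on the plus strand of chromosome 11, from 65787063 to 65797214. The 3 control libraries had 236, 261 and 232 counts, or 12.7, 12.8 and 13.01 CPM. With CoCl2 the counts were 1708, 1344 and 1916, or 106.3, 104.0 and 100.5 CPM. With OD they were 819, 792 and 596, or 37.2, 35.2 and 31.7 CPM. As for SNAI1, no 2 conditions overlapped and the CoCl2 libraries were the highest. OVOL1 had a log2 fold change of 3.01 with CoCl2 (edgeR, adjusted p = 3.37e-47, standard error 0.065), an 8.06-fold rise, and 1.44 with OD (standard error 0.071, adjusted p = 4.54e-27, edgeR), a 2.71-fold rise. Exons of an unnamed antisense lncRNA (ENSG00000255404) cover 27.3% of the exonic bases of OVOL1. As the strand setting of the counting is not stated, reads of the pair cannot be told apart there. OVOL1-AS1, a transcript from the opposite strand inside OVOL1, shares no exonic base with it. OVOL1-AS1 had 38, 17 and 33 counts with CoCl2, 1, 5 and 3 in control cells and 12, 3 and 7 with OD. It was called higher with CoCl2 (log2 fold change 3.47, standard error 0.417, adjusted p = 2.56e-11, edgeR). It passed the expression filter through the CoCl2 libraries, where it was high, so this call is no separate support for the rise of OVOL1.

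GRHL2, a grainyhead-like activator of CDH1 and other junction genes, is found on chromosome 8 at 101492439 to 101669726, plus strand. Its level was 71.1, 70.5 and 67.5 CPM in the control libraries, from 1321, 1438 and 1204 counts. With CoCl2 it was 53.4, 52.2 and 54.0 CPM, and with OD 69.7, 70.7 and 73.5 CPM. The CoCl2 libraries lay below all others, whereas OD and control libraries overlapped. With CoCl2 the log2 fold change was -0.39 (standard error 0.053, adjusted p = 1.15e-09, edgeR), a 1.31-fold lower level that stayed under the fold threshold. With OD it was 0.031, with a 95% interval of -0.069 to 0.13 and an adjusted p of 0.601 by edgeR. The exact two-sided permutation test of GRHL2 between OD and control gave p = 0.5. For 3 libraries against 3 this test cannot go below 0.1, the value it gave wherever 2 conditions did not overlap.

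ESRP1 and ESRP2 encode RNA-binding proteins that keep the epithelial splice forms of CD44, FGFR2 and CTNND1. Counts per gene do not show splice forms, so only the level of the regulators themselves is given. ESRP1 (chromosome 8, 94641074 to 94707466) had 77.1, 84.9 and 77.4 CPM in control cells, 55.8, 59.6 and 57.5 CPM with CoCl2, and 93.7, 99.6 and 95.05 CPM with OD. It was below control in every CoCl2 library and above control in every OD library. On the log2 scale ESRP1 differed from control by -0.47 with CoCl2 (adjusted p = 2.66e-12, standard error 0.053) and by 0.27 with OD (adjusted p = 2.69e-06, standard error 0.049), both by edgeR. ESRP2 (chromosome 16, 68229033 to 68238102, minus strand) had 147.0, 142.7 and 143.6 CPM in control cells. With CoCl2 it had 97.5, 93.8 and 113.2 CPM, and with OD 111.9, 110.0 and 106.1 CPM. Exons of the opposite-strand gene NFATC3 share 4.37% of the exonic bases of ESRP2. Both treatments lay below control, and CoCl2 replicate 3 reached above the OD libraries. For ESRP2 the difference was -0.503 with CoCl2 (adjusted p = 3.44e-14, standard error 0.049) and -0.40 with OD (standard error 0.048, adjusted p = 7.98e-11), both by edgeR. Scaled by library size alone, the value with CoCl2 was -1.01, which passed the fold threshold. The pair thus moved in the same direction with CoCl2 and in opposite directions with OD.

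CDH1 encodes E-cadherin, the adhesion molecule of the adherens junction, and spans 68737292 to 68835537 on the plus strand of chromosome 16. There were 18805, 20226 and 17011 counts in control cells, or 1012, 992 and 954 CPM. CoCl2 libraries had 1219, 1178 and 1199 CPM, and OD libraries 1419, 1397 and 1449 CPM. No library of 1 condition overlapped those of another, with OD the highest. With OD the log2 fold change was 0.53 (standard error 0.038, adjusted p = 3.29e-19, edgeR), a 1.44-fold higher level. With CoCl2 it was 0.28 (standard error 0.038, adjusted p = 1.27e-09, edgeR), but -0.22 with library size as the only scaling, so the direction of CDH1 with CoCl2 rests on the composition correction. SNAI1 and its known target CDH1 were thus both higher with OD, and of the settings run, a lower CDH1 with CoCl2 was seen only without that correction. An antisense lncRNA shares 5.71% of the exonic bases of CDH1.

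VIM encodes vimentin, the intermediate filament of mesenchymal cells, and FN1 encodes fibronectin, a matrix glycoprotein that mesenchymal cells secrete and that hepatocytes and some epithelia also make. They were at opposite ends of the range. VIM (chromosome 10, 17228241 to 17237593, plus strand) had only 93, 79 and 86 counts in control libraries. There were 40, 33 and 67 with CoCl2, and 123, 104 and 110 with OD. In CPM VIM was at 5.00, 3.87 and 4.82 in control libraries, at 2.49, 2.55 and 3.51 in CoCl2 libraries and at 5.59, 4.62 and 5.86 in OD libraries. The CoCl2 libraries were below all control libraries, while OD and control overlapped. VIM with CoCl2 differed from control by -0.64 on the log2 scale (edgeR, standard error 0.165, adjusted p = 0.000344), 1.56-fold lower, and -1.15 with library size alone. With OD it was 0.23, with a 95% interval of -0.046 to 0.504 (edgeR, adjusted p = 0.139). Antisense lncRNAs share exonic bases with VIM. VIM-AS1 covers 12.7% of them and had 0 to 5 counts in any library, against 33 to 123 for VIM. The other, ENSG00000234961, covers 12% and was not matched to a symbol of the table.

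FN1 (chromosome 2, 215360440 to 215436073, minus strand) was the most abundant gene of the table in all 3 control libraries by its share of the counts, with 1.33% to 1.36% of their counts. It took 0.782% to 0.873% with CoCl2 and 1.85% to 1.90% with OD. On the CPM scale FN1 was at 12033, 12225 and 12108 in control cells, 10436, 9856 and 11083 with CoCl2, and 16769, 16218 and 16113 with OD. The conditions did not overlap, with OD above and CoCl2 below control. FN1 differed from control by -0.21 on the log2 scale with CoCl2 (standard error 0.042, adjusted p = 5.62e-06) and 0.43 with OD (standard error 0.042, adjusted p = 3.11e-14), both by edgeR.

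Promoter windows of RefSeq (GRCh38.p14, 250 bases before to 50 after a start) were at hand for 3 of the 10 genes, FN1, VIM and ZEB1, and for 35116 starts in all. The windows were searched on both strands for the E-box CACCTG, to which Snail and ZEB factors bind, and for the HIF core motifs ACGTG and GCGTG. Of all windows 20.6% held CACCTG, 21.4% ACGTG and 36.5% GCGTG. The FN1 window held none of the 3. It holds the palindrome TGACGTCA, the cAMP response element, which was looked for after the sequence had been seen and occurs in 1.85% of all windows. The VIM window held 1 ACGTG, on the minus strand from base 9 after the start, and neither of the others. Both sequences are shown because they come from the windows of the mesenchymal markers that were higher with OD than with CoCl2. The capitals mark the TGACGTCA of FN1 and, in VIM, the ACGTG as read from the plus strand. A match is a string of letters and not a measured binding site.
FN1, the bases before the start (chr2:215436069-215436318, minus strand): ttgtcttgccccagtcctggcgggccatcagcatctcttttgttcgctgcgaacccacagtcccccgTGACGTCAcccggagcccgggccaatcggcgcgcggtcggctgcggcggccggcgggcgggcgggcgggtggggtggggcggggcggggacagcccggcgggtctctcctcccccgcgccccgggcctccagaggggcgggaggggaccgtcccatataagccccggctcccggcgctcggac
VIM, around the match (chr10:17228237-17228266, plus strand): atctgggaggccCACGTatggcgcctctcc

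ZEB1 has 7 windows at its alternative starts. CACCTG occurred once in the window at 31318167 to 31318466 and 3 times in that at 31318966 to 31319265. GCGTG was found 3 times in the window at 31318568 to 31318867 and once in that at 31320304 to 31320603, and ACGTG 2 times in that at 31320951 to 31321250. The few ZEB1 reads do not show which start was in use.

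Per length, the order of the 8 tested genes in control cells was FN1, CDH1, ESRP2, ESRP1, GRHL2, SNAI1, OVOL1 and VIM, from 704 ± 5.64 to 0.882 ± 0.117 CPM per kilobase of exon (SD, n = 3). Each neighbour pair in this order was separate in the control libraries. CDH1 had 162 ± 4.80 CPM per kilobase, ESRP2 27.8 ± 0.441, ESRP1 16.4 ± 0.905 and GRHL2 11.5 ± 0.313. SNAI1 followed with 5.02 ± 0.925 and OVOL1 with 3.38 ± 0.043 CPM per kilobase. With CoCl2 SNAI1 stood in place 3 with 72.5 ± 5.15 CPM per kilobase and OVOL1 in place 4 with 27.2 ± 0.766, both above ESRP2 (19.6 ± 1.98), ESRP1 (11.8 ± 0.389) and GRHL2 (8.79 ± 0.146). With OD the level of SNAI1 (11.6 ± 0.364) overlapped that of GRHL2 (11.8 ± 0.327), so their order is not set. ESRP2 (21.1 ± 0.572) and ESRP1 (19.7 ± 0.637) were next to each other with OD, the lowest library of the first at 20.45 and the highest of the second at 20.44 CPM per kilobase. VIM was the lowest of the 8 in every condition.

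**Figure D3:**
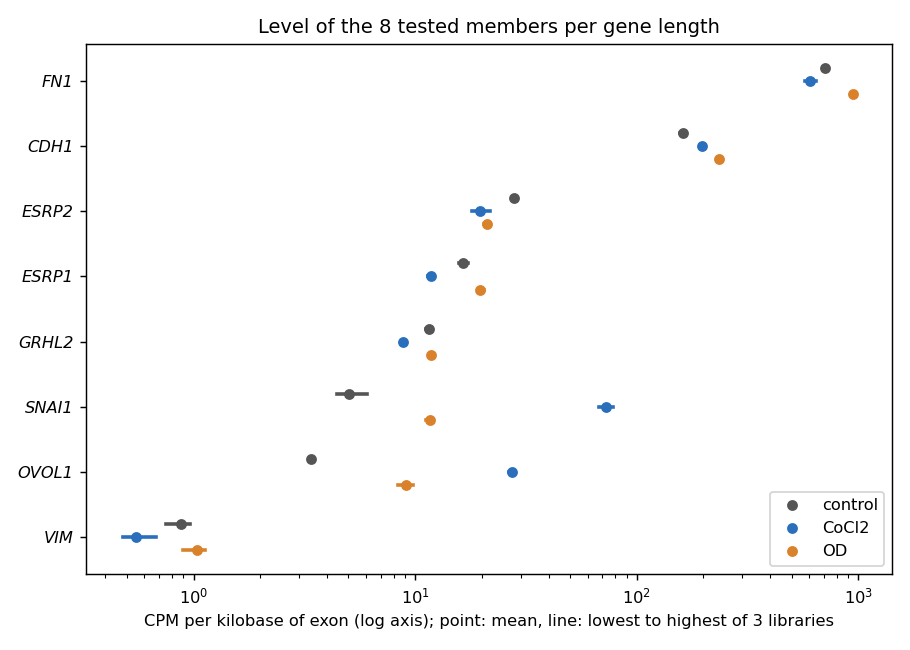
CPM per kilobase of exon (log axis) of the 8 tested genes in control, CoCl2 and OD cells, ordered by the control mean, with points for means and lines from the lowest to the highest of 3 libraries. SNAI1 goes from 5.02 in control cells to 72.5 with CoCl2, above ESRP2, ESRP1 and GRHL2.

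The 2 agents were compared directly in the same fit, which tests the difference itself, since both comparisons with control share the control libraries. SNAI1 and OVOL1 were called higher with CoCl2 than with OD (2 of 8, beside 17.5% of all genes), and none was called lower by edgeR or DESeq2, beside 23.8%, although 6 of the 8 had an unadjusted p under 0.05 on that side. Under library size alone the 2 shares of all genes were 8.47% and 37.8%. By the adjusted p alone 7 of 8 differed, beside 83.5% of all genes. The log2 difference of CoCl2 from OD was 2.64 for SNAI1 (standard error 0.064, adjusted p = 4.24e-42, edgeR) and 1.57 for OVOL1 (standard error 0.055, adjusted p = 1.21e-35, edgeR). For VIM the difference was -0.87 (standard error 0.158, adjusted p = 1.14e-06, edgeR), and it passed the fold threshold without CoCl2 replicate 3 (-1.08), with upper-quartile factors (-1.01) and with library size alone (-1.42). ESRP1 was lower with CoCl2 than with OD (log2 difference -0.74, standard error 0.052, adjusted p = 1.52e-20, edgeR), as was FN1 (-0.65, standard error 0.042, adjusted p = 4.17e-22). With library size alone both passed the fold threshold, at -1.29 and -1.19, where the median of all genes went from -0.054 to -0.60. GRHL2 differed by -0.42 (standard error 0.052, adjusted p = 8.84e-11, edgeR) and CDH1 by -0.25 (standard error 0.038, adjusted p = 4.22e-08, edgeR), with no overlap of the libraries of either gene. ESRP2 was the tested gene that missed the threshold, with a difference of -0.10, a 95% interval of -0.20 to -0.0028 and an adjusted p of 0.0528 by edgeR, and its libraries overlapped. This difference depended on the scaling, at -0.23 with upper-quartile factors and -0.65 with library size alone.

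The wider network was read from 5 lists of genes with these roles, to which the 10 genes also belong. The lists were chosen with earlier results of these data known, so their counts and medians describe the listed genes only. Of all genes tested, 19.9% were called higher and 23.4% lower with CoCl2, and 9.09% and 4.16% with OD. Among 11 EMT transcription factors, TWIST1, TWIST2 and PRRX1 had no count in any library, and ZEB2, FOXC2 and GSC had at most 2 counts in any. SNAI1, SNAI3 and TCF4 were the 3 tested, with 1 called higher (SNAI1) and 1 lower with CoCl2. TCF4, an E-protein that can promote EMT, went from 95.9 ± 4.23 CPM in control cells to 25.1 ± 1.87 with CoCl2 (log2 fold change -1.94, standard error 0.060, adjusted p = 8.82e-39, edgeR). With OD TCF4 was at 56.3 ± 2.29 CPM (-0.77, under the fold threshold), and the difference of CoCl2 from OD was -1.17 (adjusted p = 2.17e-26, edgeR). SNAI1 was thus the one tested factor of the list called higher, and ZEB1 and SNAI2 had the few counts given above.

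Of 10 factors that maintain epithelial identity 9 were tested, and OVOL1 was called higher with CoCl2 together with 6 others, beside 19.9% of all genes. After OVOL1, the largest log2 fold changes with CoCl2 were 2.71 for KLF4, 2.38 for EHF and 2.11 for KLF5, which are epithelial Krüppel-like and ETS factors. EHF had only 7 to 13 counts in control libraries and 5 to 12 with OD, against 31 to 51 with CoCl2. It passed the expression filter through the CoCl2 libraries, where it was high, so its call is no separate support. The remaining tested factors were GRHL2 and OVOL2, a paralog of OVOL1 that was singled out after its values were seen, at -0.47 (adjusted p = 0.000748, edgeR). With OD 4 of the 9 were called higher, beside 9.09% of all genes. These were KLF4 (2.28), OVOL1, ELF3 (1.13) and GRHL3 (1.06). The median log2 fold change of the 9 was 1.93 with CoCl2 and 0.82 with OD, beside -0.049 and -0.010 over all genes tested. As the list was chosen with earlier results known, nothing about the group is read from these medians. Over the alternative settings 6 to 7 were called higher with CoCl2 and 3 to 4 with OD.

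Among 7 splicing regulators of epithelial and mesenchymal isoforms, ESRP1 and ESRP2 were 2 of the 3 below control with CoCl2 by the adjusted p. By that measure 83.2% of all genes differed in either direction. RBM47, an RNA-binding protein with functions in EMT, was called higher with CoCl2 at a log2 fold change of 1.01 (adjusted p = 1.81e-28, edgeR), just past the threshold, and was not called with upper-quartile factors, library size alone or either other count filter. With OD 0 of the 7 were called by edgeR or DESeq2, beside 9.09% of all genes called higher and 4.16% lower. By the adjusted p 3 were higher and 4 lower with OD, beside 65.6% of all genes in either direction. The median was -0.14 with OD against 0.69 with CoCl2, or -0.10 against 0.18 with library size alone.

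CDH1 belongs to 13 genes of adherens junctions and desmosomes, all tested. Of these 2 were called higher with CoCl2 and 1 with OD, beside 19.9% and 9.09% of all genes. These were CTNNA1 (alpha-catenin, which ties the cadherin complex to actin, 1.31 with CoCl2) and DSP (desmoplakin, 1.14 with CoCl2 and 1.07 with OD). By the adjusted p 8 of the 13 were above control with CoCl2 and 4 below, beside 83.2% of all genes in either direction. The lowest was CDH3, singled out after its values were seen, at -0.90 (adjusted p = 2.46e-27, edgeR), under the fold threshold. CDH3 was called lower with CoCl2 than with OD (-1.14). The median of the 13 was 0.32 with CoCl2 and 0.24 with OD, but -0.18 with CoCl2 under library size alone. There the single call was of CDH3, lower at -1.405.

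VIM and FN1 belong to 11 mesenchymal markers, of which 7 were tested. With CoCl2 0 were called higher and 1 lower, beside 19.9% and 23.4% of all genes. With OD 1 was called higher and 1 lower, beside 9.09% and 4.16%. TNC, a matrix glycoprotein of wounds and tumour stroma, was called lower with CoCl2 (-2.44, adjusted p = 1.79e-29, edgeR). With OD TNC was also below control, at -0.78 (adjusted p = 2.04e-12, edgeR), under the fold threshold. With OD MMP14, a membrane-bound matrix metalloproteinase, was called higher (1.24, adjusted p = 2.99e-33, edgeR) and TAGLN, an actin-binding protein of smooth muscle, lower (-1.21, adjusted p = 3.76e-35, edgeR). With CoCl2 MMP14 was at 0.21 and TAGLN at -0.95 (adjusted p = 1.86e-30, edgeR), just under the fold threshold. The median was -0.64 with CoCl2, at VIM itself, and -0.34 with OD, beside -0.049 and -0.010 over all genes tested. Regardless of sign, the median size was 0.64 with CoCl2, beside 0.86 over all genes. With OD it was 0.64, beside 0.38. With library size alone 4 of the 7, VIM included, were called lower with CoCl2, where 36.6% of all genes were. MIR200CHG, the host transcript of microRNAs that repress ZEB1, was at -0.10 with CoCl2 and -0.23 with OD, and neither passed the test (adjusted p = 0.737 and 0.441, edgeR).

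The identity of the cells was read from 9 colon epithelium markers, whose summed level was 9398 to 9889 CPM in the control group, 11212 to 12075 in the CoCl2 group and 8526 to 9034 in the OD group. Of these CDX1 was at 0 in all 9 libraries, and VIL1 (villin, -2.45) and KRT20 (keratin 20, -1.44) were called lower with CoCl2. KRT8 and KRT18 carried most of the sum. With CoCl2 they and EPCAM were above control (0.35, 0.26 and 0.36) but below it with library size alone (-0.16, -0.24 and -0.14). The higher sum with CoCl2 thus rests on the composition correction. CDH17, singled out after its values were seen, was above control with CoCl2 (0.76) and stayed above it with library size alone (0.26). LGALS4 was called higher with CoCl2 at 5 to 33 counts a library, the 33 in CoCl2 replicate 2, but its CoCl2 and control libraries overlapped and the call was lost with library size alone (1.16). The fibroblast genes DCN, THY1 and COL1A2 had at most 2 counts in any library, the leukocyte gene PTPRC at most 3, and the endothelial genes KDR and CDH5 at most 2 and 11. Other genes of these lists were counted and differed. COL1A1 had 135 to 480 counts, and PDGFRB was called lower with CoCl2 (-2.31, adjusted p = 4.24e-16, edgeR), from 4.79 to 0.932 CPM. COL3A1, singled out after its values were seen, had 74 to 150 counts. It was above control with CoCl2 (0.69, adjusted p = 1.21e-06, edgeR), under the fold threshold, and below it with OD (-0.40). CD14 was called lower with OD (-1.08, adjusted p = 1.59e-08, edgeR), from 4.74 to 2.22 CPM. LUM was called higher with OD (1.78) and VWF with CoCl2 (1.61), at 2 to 32 and 6 to 20 counts a library, and these 2, like LGALS4, were singled out after their values were seen. LUM passed the expression filter through the OD libraries, where it was high. The summed level of 8 fibroblast markers was 109 to 118 CPM for control, 101 to 103 for CoCl2 and 87.4 to 92.7 for OD, most of it from PDGFRA (55.4 to 94.5 CPM). For 5 leukocyte markers the sums were 4.51 to 5.49, 5.03 to 5.47 and 2.34 to 2.71 CPM, and for 4 endothelial markers 2.69 to 3.28, 2.36 to 2.94 and 2.93 to 3.50 CPM. The part of these markers in the values of VIM and FN1 was not tested.

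The genes closest to CDH1, VIM and GRHL2 in pattern were sought by Pearson's r on log2 CPM over the 9 libraries, among genes that averaged 10 CPM or more. These libraries share 3 conditions and the scaling, so r mostly describes the order and relative spacing of the 3 condition means. Closest to CDH1 were PFKFB4 (r = 0.9946), EPRS1 (0.9945) and MT-RNR1 (0.9927), whose means were likewise lowest in control cells and highest with OD. PFKFB4, an enzyme that sets the level of an activator of glycolysis, went from 10.1 to 44.8 and 140 CPM, a far wider range than that of CDH1 at 986, 1199 and 1422 CPM. Closest to GRHL2 were TCAF1 (0.9978), FGFR2 (0.9967) and PAN2 (0.996). FGFR2, a growth factor receptor with an epithelial splice form, averaged 166 CPM in the control, 60.7 in the CoCl2 and 180 in the OD libraries. Closest to VIM were PRSS16 (0.9767), STK36 (0.9616) and TBC1D9 (0.9591).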

How the data were processed

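Poly(A) RNA of 9 uCaco-2 cultures, 3 per condition, was sequenced on an Illumina NextSeq from stranded single-end libraries. The authors trimmed reads with cutadapt 2.10, checked them with FastQC 0.11.9, aligned them to GRCh38.p13 with STAR 2.7.5b and deposited raw counts per gene symbol. The counting tool and its strand setting are not given in the sources used here. Raw counts hold no molecular identifiers, so PCR copies count as reads. Samples were grouped by their labels. Symbols were matched exactly.

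Counts were fitted with edgeR 4.0.16 in R 4.3.3 (TMM factors, filterByExpr, robust quasi-likelihood F test), with 1 mean per condition over all 9 libraries. P-values were adjusted by Benjamini-Hochberg over all genes tested and measure the spread between these cultures only. Both thresholds for a call, 0.05 for the adjusted p and 1 for the size of the log2 fold change, are those of the study. Printed standard errors come from the F statistic and intervals cover 95%. Sparse genes were compared by counts, with exact conditional binomial intervals. Single genes were also compared by exact two-sided permutation of log2 CPM. CPM were divided by exonic length of the merged GENCODE gene model for levels between genes. The fit was tested on simulated data with known changes.

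The members and lists were chosen with earlier results of these data known. Named were all members, for each list and comparison with control up to 4 called genes with the largest change and a mean of at least 1 CPM (others are said to have been singled out after their values were seen), and the 3 genes most like CDH1, VIM and GRHL2. Alternatives were DESeq2 1.42.0, other scaling factors, other count filters, fits on 6 libraries, a replicate block, glmTreat, the adjusted p alone and leaving out each library. TMM without the 50 most abundant genes was added after seeing the data.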

Additional observations from a re-analysis of the deposited data

Results flagged for a closer look

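For 7 of the 8 tested genes the effects of the 2 agents differed by the direct test in the same fit (edgeR, adjusted p under 0.05, 3 libraries per condition), which is why they are listed. Of all genes 83.5% passed the same test, so the count of 7 is near the background. The agents differ in dose as well as in kind, and the 2 cannot be told apart. CoCl2 minus OD was 2.641 for SNAI1 and 1.574 for OVOL1 on the log2 scale, which both agents raised. It was -0.6461 for FN1 and -0.7406 for ESRP1, which were below control with CoCl2 and above it with OD by the adjusted p. It was -0.8738 for VIM and -0.4193 for GRHL2, which were below control with CoCl2 and did not pass the test with OD. It was -0.2462 for CDH1, which was above control with both agents, although below it with CoCl2 when library size was the only scaling. Adjusted p-values of the 7 differences were 1.14e-06 or smaller.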

How the results depend on the processing

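SNAI1 and OVOL1 were called in all 3 comparisons under every alternative run, with log2 changes of 3.35 to 4.01 and 2.51 to 3.06 (CoCl2 against control), 1.13 to 1.37 and 1.39 to 1.499 (OD against control) and 2.09 to 2.69 and 1.03 to 1.62 (CoCl2 against OD). With library size alone CDH1 was reversed with CoCl2 (-0.2234), 4 members in place of 2 were called with CoCl2 (VIM at -1.15 and ESRP2 at -1.01 besides) and 5 between the agents. By the adjusted p alone 8, 6 and 7 members passed in CoCl2 against control, OD against control and CoCl2 against OD, and 13260, 10466 and 13311 of all genes. Leaving out 1 library gave 2 to 3 members with CoCl2, 2 with OD and 2 to 4 between the agents, the 4 without CoCl2 replicate 3 (VIM and ZEB1 besides). ZEB1 joined because the filter then asks for fewer libraries, which its CoCl2 counts alone met. DESeq2 on 9 libraries called 3, 2 and 3. Of all genes, 6891, 2113 and 6580 were called, but with at least 10 counts in every library 1134 with OD, and by glmTreat 965 with OD. The replicate numbers were not shown to pair the libraries, and a weak pairing is not excluded. Correlations of deviations were -0.00492 to 0.0376 for the same number and -0.0467 to 0.025 for different numbers. Of 9 libraries 6 correlated best with their own number. With the replicate block 2, 2 and 2 members and 6901, 2115 and 6568 genes were called, and no member's call changed. Depth limits ZEB1 and SNAI2, where 3 counts are 0.133 to 0.232 CPM in a library, and 33 counts of VIM in the smallest library.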
